A study of Mus musculus with 22 samples.

Results

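The genes described here are 10 immediate-early response genes, *Egr1*, *Egr2*, *Nr4a1*, *Atf3*, *Ier2*, *Ier3*, *Btg2*, *Dusp1*, *Zfp36* and *Ppp1r15a*, out of 55401 gene identifiers counted by RNA-seq in serially passaged mouse embryonic fibroblasts (MEFs). MEFs are a primary culture, and repeated passaging drives them into replicative senescence, a lasting arrest of division. The genes were chosen by name from counts whose pattern over the 6 groups was already known, so their values are given as a description, and where the fits over all genes called some of them, the calls are counted but support nothing. All 10 matched 1 identifier each and passed the filter on low counts in every comparison.

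The 22 libraries fall into 6 groups in 2 sets of MEFs. The *S6K1* set, built around a kinase downstream of mTORC1 (gene *Rps6kb1*), held 4 libraries of early WT MEFs at passage 3, 4 of late WT MEFs at passage 8 and 3 of late *S6K1* KO MEFs at passage 8. The *S6K1/S6K2* set, built around this kinase and its paralog (gene *Rps6kb2*), held 4 early WT libraries at passage 3, 4 late WT libraries at passage 8 and 3 late *S6K1/S6K2* DKO libraries at passage 8. No drug or oncogene is named for these cells. Livers and MEFs with oncogenic RAS were not analysed here. As a model, each culture is a mixed population from an embryo without head and viscera, and the knockouts are carried from the germ line onward. By the study's methods, *S6K1* KO MEFs came with WT littermates, whereas the WT cells set against DKO MEFs had other mothers, so litter and genotype cannot be told apart in that comparison. The labels do not say which libraries share an embryo. In 5 of the 6 groups some libraries had Y-linked counts and others did not, so those groups held more than 1 embryo. The study describes the replicates of its serially passaged MEFs as coming from different embryos. How many embryos each group held is not known from the labels, and *P* values measure the spread between these libraries.

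Total counts per library ran from 10742454 to 17314832. *Rps6kb1* was at 63.5 ± 9.16 CPM (counts scaled to a common library total, SD, n = 4) in late WT and 20.01 ± 5.07 (n = 3) in KO MEFs in the *S6K1* set, and at 73.8 ± 10.6 (n = 4) and 23.9 ± 4.03 (n = 3) in late WT and DKO MEFs of the *S6K1/S6K2* set. *Rps6kb2* was at 13.2 ± 2.48 (n = 4) in late WT and 0.812 ± 0.478 (n = 3) in DKO MEFs, so the targeted genes were low where the labels say. All 12 fibroblast markers had counts in every library, and so did 19 macrophage markers, which are given beside the results. Y-linked genes were above 10 CPM in 2 of 4, 1 of 4 and 3 of 3 libraries of early WT, late WT and KO MEFs and in 2 of 4, 3 of 4 and 1 of 3 libraries of the matching *S6K1/S6K2* groups, so sex was not balanced across the groups. In bulk libraries such as these, fewer cells that express a gene and less RNA per cell cannot be told apart.

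Immediate-early genes are switched on within minutes of a stimulus such as serum, a growth factor or stress, without new protein synthesis, because the factors that act on their promoters are already present. ERK and p38 kinases phosphorylate ternary complex factors that sit with SRF on CArG boxes, and CREB acts on cAMP response elements. Their mRNAs are short-lived, and some of their products, such as the MAP kinase phosphatase DUSP1 and the mRNA decay factor TTP, shut the response down again.

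Promoter sequence was at hand in a RefSeq table (build GRCm38.p6) for 8 of the 10 genes, all but *Egr1* and *Ier2*. The sequences show which of the 8 carry letters that SRF, CREB or EGR proteins are known to bind, and each match is in capitals. The first 3 stretches are 200 bases long and end at the base before the annotated start of the gene, on the strand of the gene. *Zfp36* (chr7:28379229-28379428, minus strand) and *Dusp1* (chr17:26508473-26508672, minus strand) are shown as genes with a large change between the groups and *Btg2* (chr1:134079156-134079355, minus strand) as the gene with the smallest.
Zfp36: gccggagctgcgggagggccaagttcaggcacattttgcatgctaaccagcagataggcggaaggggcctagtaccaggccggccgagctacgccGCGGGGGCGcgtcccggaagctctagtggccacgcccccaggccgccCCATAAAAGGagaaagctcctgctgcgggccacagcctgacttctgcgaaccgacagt
Dusp1: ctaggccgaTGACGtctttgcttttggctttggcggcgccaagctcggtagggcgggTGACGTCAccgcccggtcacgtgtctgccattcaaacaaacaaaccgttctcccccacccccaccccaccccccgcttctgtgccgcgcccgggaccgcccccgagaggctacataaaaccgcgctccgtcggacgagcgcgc
Btg2: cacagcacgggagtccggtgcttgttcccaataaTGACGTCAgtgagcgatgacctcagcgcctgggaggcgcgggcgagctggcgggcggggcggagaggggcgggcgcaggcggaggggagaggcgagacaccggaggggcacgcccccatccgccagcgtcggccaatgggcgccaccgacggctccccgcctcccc

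The capitals in *Zfp36* are an EGR site (GCGGGGGCG) at positions -105 to -97 from the start and a CArG box at -58 to -49. In *Dusp1* they are the core of a cAMP response element (TGACG) at -191 to -187 and a full element (TGACGTCA) at -143 to -136. In *Btg2* the capitals are a full cAMP response element at -166 to -159.

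For 4 more genes, 30 bases around a match are shown, at chr10:67537787-67537816 (plus strand) for *Egr2*, chr15:101266775-101266804 (plus strand) for *Nr4a1*, chr7:45526269-45526298 (minus strand) for *Ppp1r15a* and chr1:191183334-191183363 (minus strand) for *Atf3*. The *Egr2* match is a CArG box, *Nr4a1* holds a cAMP element core and an EGR site that both read on the opposite strand, *Ppp1r15a* holds a full cAMP response element and *Atf3* a core on the opposite strand.
Egr2: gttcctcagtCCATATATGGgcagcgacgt
Nr4a1: tgCGTCAgtggCGCCCCCGCccctctccat
Ppp1r15a: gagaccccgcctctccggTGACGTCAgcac
Atf3: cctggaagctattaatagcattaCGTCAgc

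With both strands searched in the 200 bases before each start, a CArG box was found in 1.18% of the 32851 promoters of the table and in 2 of the 8 genes, *Egr2* and *Zfp36*. The share is over single starts, whereas a gene was counted when any of its starts had a match, and *Egr2* has 5 starts in the table against 1 for each of the other 7 genes. A full cAMP response element, TGACGTCA, was in 1.47% of all promoters and in 3 of the 8, *Btg2*, *Dusp1* and *Ppp1r15a*. Its core TGACG, which every full element also contains, was in 15.7% of all and in 6 of the 8. The EGR site GCGGGGGCG was in 2.36% of all and in *Nr4a1* and *Zfp36*, and the form GCGTGGGCG was in 0.49% of all and in none of the 8. *Ier3* held none of these letters. Such matches are a description and not measured binding, and their part in the levels over the groups was not tested.

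With passage, most of the 10 genes went in opposite directions in the 2 sets of WT MEFs. Levels were high at passage 3 and low at passage 8 in the *S6K1* set, and low at passage 3 and high at passage 8 in the *S6K1/S6K2* set. KO libraries mostly overlapped the late WT libraries of their own set. DKO libraries lay above those of late WT MEFs for *Egr2*, *Nr4a1* and *Ier2* and below for *Atf3* and *Dusp1*. For the other genes DKO and late WT libraries overlapped. How many of all genes had knockout and late WT libraries apart was not counted. Levels are in CPM with TMM scaling over all 22 libraries. They are not divided by transcript length and so are compared only within a gene. Log2 fold changes come from the fit over all genes of a set (edgeR quasi-likelihood) and are given with a standard error (SE). This SE is the absolute log2 fold change divided by the square root of the F statistic of the test.

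**Figure D1:**
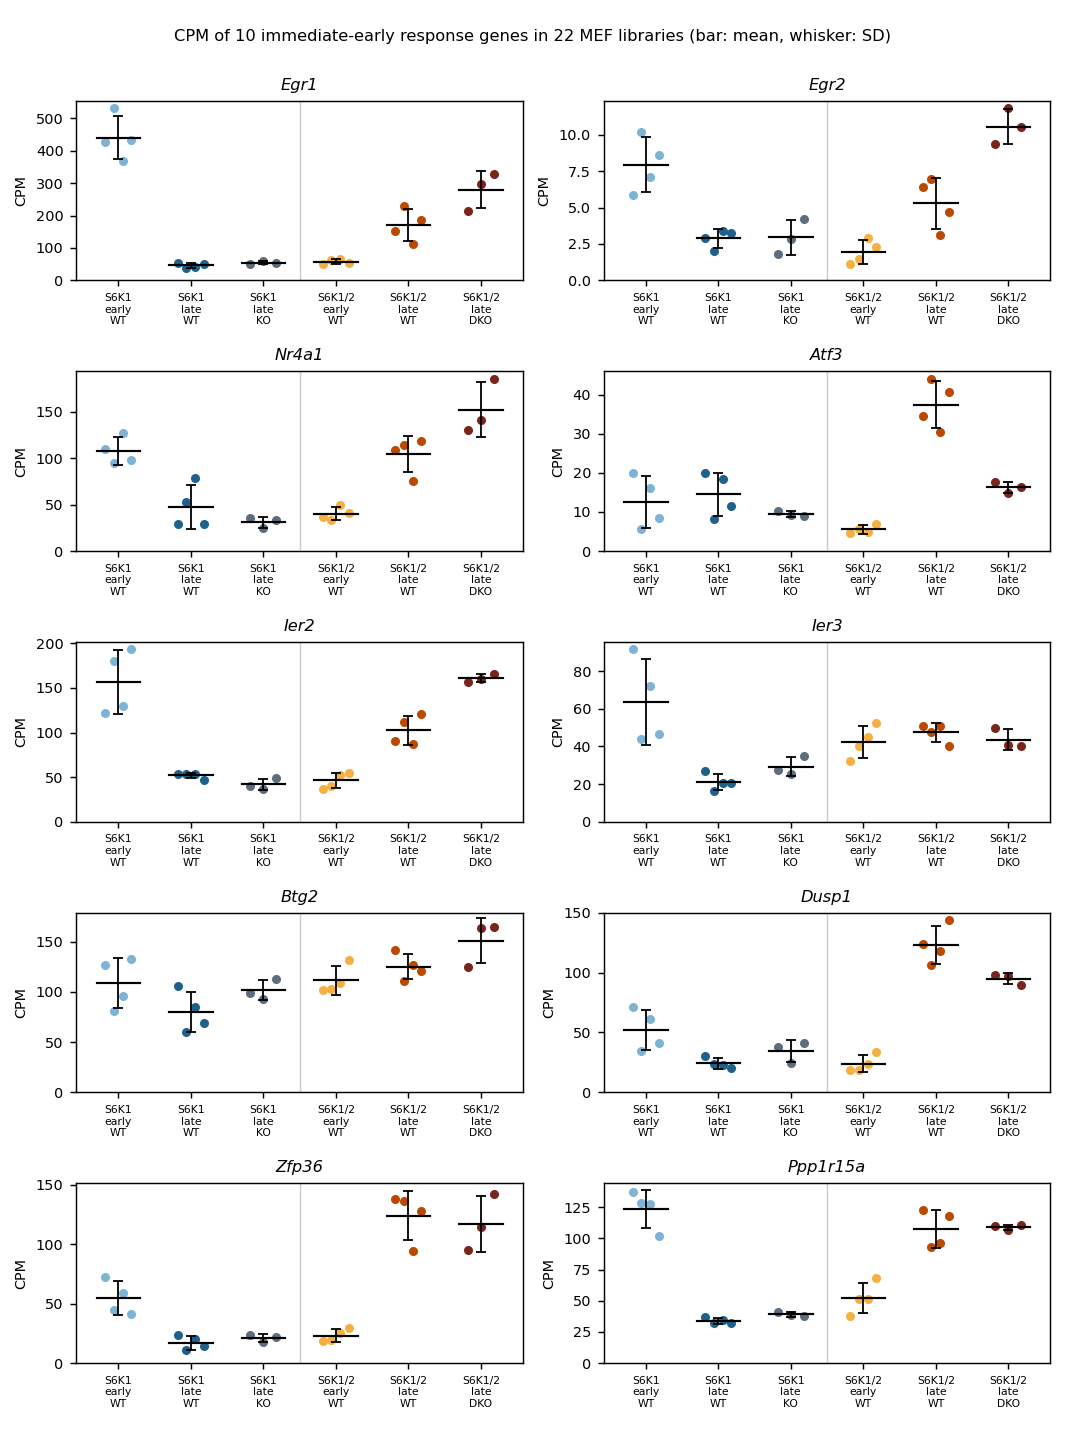
CPM (linear axis from 0) of each of the 10 genes in the 22 libraries, with 1 point per library, a bar at the group mean and a whisker for the SD, the *S6K1* set on the left and the *S6K1/S6K2* set on the right of each panel. *Egr1* is highest in the early WT libraries of the *S6K1* set, at 369.6 to 531 CPM, and *Atf3* in the late WT libraries of the *S6K1/S6K2* set, at 30.4 to 44.0 CPM.

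Among the transcription factors, *Egr1*, a zinc-finger factor induced by serum and growth factors, had the widest range. *Egr1* was at 428, 531, 369.6 and 433 CPM in early WT MEFs of the *S6K1* set, at 54.1, 39.8, 40.7 and 49.3 in late WT MEFs and at 51.7, 58.7 and 54.5 in KO MEFs. *Egr1* in the *S6K1/S6K2* set was at 50.3, 62.6, 65.3 and 53.2 CPM in early WT MEFs, at 152, 228, 113 and 186 in late WT MEFs and at 216, 298 and 328 in DKO MEFs. Early and late WT libraries did not overlap in either set, with a 9.60-fold lower level at late passage in the first (log2 fold change -3.26 ± 0.16, SE) and a 3.00-fold higher one in the second (1.58 ± 0.21). Early WT MEFs of the *S6K1* set stood above all other libraries, and the lowest DKO library (216 CPM) lay below the highest late WT library of its set (228 CPM).

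*Egr2*, a related zinc-finger factor, had the lowest counts, with as few as 20 in a library. *Egr2* was at 5.85, 10.2, 7.11 and 8.63 CPM in early WT MEFs of the *S6K1* set, at 2.90, 1.999, 3.39 and 3.23 in late WT MEFs and at 1.82, 2.83 and 4.24 in KO MEFs. *Egr2* in the *S6K1/S6K2* set was at 1.11, 1.47, 2.92 and 2.32 CPM in early WT MEFs, at 6.40, 6.99, 3.10 and 4.73 in late WT MEFs and at 9.37, 11.8 and 10.5 in DKO MEFs. Early and late libraries were apart in both sets, with log2 fold changes of -1.46 ± 0.30 and 1.48 ± 0.33. All 3 DKO libraries lay above all 4 late WT libraries of their set.

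*Nr4a1*, an orphan nuclear receptor induced by many stimuli, showed the same reversal. *Nr4a1* was at 110.0, 95.3, 128 and 97.98 CPM in early WT MEFs of the *S6K1* set, at 29.5, 53.3, 79.1 and 29.7 in late WT MEFs and at 36.0, 24.4 and 33.2 in KO MEFs. *Nr4a1* in the *S6K1/S6K2* set was at 36.9, 33.9, 49.8 and 40.5 CPM in early WT MEFs, at 109, 114, 75.9 and 119 in late WT MEFs and at 130.5, 141 and 186 in DKO MEFs. Its log2 fold changes with passage were -1.17 ± 0.29 and 1.41 ± 0.18, and early and late libraries did not overlap in either set. Late WT MEFs of the *S6K1* set spread widely, from 29.5 to 79.1 CPM.

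*Atf3*, a stress-induced factor of the CREB family, departed from this pattern. *Atf3* was at 20.1, 5.61, 16.2 and 8.36 CPM in early WT MEFs of the *S6K1* set, at 19.9, 8.08, 18.4 and 11.6 in late WT MEFs and at 10.3, 9.10 and 8.94 in KO MEFs. *Atf3* in the *S6K1/S6K2* set was at 4.59, 5.51, 4.93 and 7.02 CPM in early WT MEFs, at 34.5, 44.0, 30.4 and 40.7 in late WT MEFs and at 17.7, 14.9 and 16.3 in DKO MEFs. Its early and late libraries overlapped in the *S6K1* set (0.20 ± 0.38) but were apart in the other, with a 6.93-fold higher late level (2.79 ± 0.17). DKO libraries lay between, 2.32-fold below late WT MEFs (-1.21 ± 0.18) and above every early WT library of the *S6K1/S6K2* set.

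*Ier2* encodes a nuclear protein named for its rapid induction. *Ier2* was at 122, 180.2, 129 and 194 CPM in early WT MEFs of the *S6K1* set, at 53.5, 52.9, 53.7 and 47.2 in late WT MEFs and at 40.4, 37.0 and 48.7 in KO MEFs. *Ier2* in the *S6K1/S6K2* set was at 37.1, 40.4, 52.5 and 55.0 CPM in early WT MEFs, at 90.0, 112, 87.6 and 121 in late WT MEFs and at 157, 160.1 and 166 in DKO MEFs. The early and late groups were apart in both sets (-1.60 ± 0.17 and 1.18 ± 0.15), and DKO MEFs lay above late WT MEFs in all 3 libraries.

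*Ier3*, which is linked to cell survival and ERK signalling, showed a difference with passage in 1 set. *Ier3* was at 91.8, 43.7, 71.8 and 46.8 CPM in early WT MEFs of the *S6K1* set, at 27.1, 16.3, 20.7 and 20.6 in late WT MEFs and at 27.6, 25.2 and 34.9 in KO MEFs. *Ier3* in the *S6K1/S6K2* set was at 32.1, 40.2, 44.9 and 52.3 CPM in early WT MEFs, at 50.6, 47.9, 50.9 and 40.1 in late WT MEFs and at 49.8, 40.5 and 40.1 in DKO MEFs. The late level was 3.01-fold lower in the first set (-1.59 ± 0.25) and overlapped with the early one in the second (0.19 ± 0.15).

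*Btg2*, an antiproliferative gene that is also a target of p53, varied least. *Btg2* was at 127, 80.7, 96.0 and 133 CPM in early WT MEFs of the *S6K1* set, at 106, 60.3, 85.1 and 68.8 in late WT MEFs and at 99.4, 93.3 and 113 in KO MEFs. *Btg2* in the *S6K1/S6K2* set was at 102, 103, 109 and 132 CPM in early WT MEFs, at 142, 111, 127 and 121 in late WT MEFs and at 125, 164 and 164 in DKO MEFs. Early and late libraries overlapped in both sets (-0.45 ± 0.20 and 0.20 ± 0.13), and its highest group mean was 1.89 times its lowest, against 3.00 to 9.58 times in the other 9 genes.

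The feedback genes all showed the reversal. *Dusp1*, a phosphatase that inactivates MAP kinases, was at 70.9, 34.9, 60.9 and 41.5 CPM in early WT MEFs of the *S6K1* set, at 30.2, 23.3, 22.8 and 20.3 in late WT MEFs and at 38.0, 24.2 and 41.1 in KO MEFs. *Dusp1* in the *S6K1/S6K2* set was at 18.9, 18.7, 23.8 and 33.7 CPM in early WT MEFs, at 124, 106, 118 and 144 in late WT MEFs and at 98.3, 97.3 and 89.3 in DKO MEFs. It was 2.165-fold lower at late passage in the first set (-1.11 ± 0.24) and 5.29-fold higher in the second (2.40 ± 0.18), without overlap. Its highest level was in late WT MEFs of the *S6K1/S6K2* set, above every DKO library.

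*Zfp36* encodes TTP, which binds AU-rich elements and destabilizes mRNAs of cytokines and of other early response genes. *Zfp36* was at 72.3, 45.0, 59.1 and 41.6 CPM in early WT MEFs of the *S6K1* set, at 23.5, 10.8, 20.2 and 14.0 in late WT MEFs and at 23.7, 17.5 and 21.7 in KO MEFs. *Zfp36* in the *S6K1/S6K2* set was at 18.5, 19.3, 25.1 and 29.6 CPM in early WT MEFs, at 138, 137, 94.0 and 128 in late WT MEFs and at 94.8, 114 and 142 in DKO MEFs. The log2 fold changes with passage were -1.67 ± 0.25 and 2.46 ± 0.19 without overlap, while DKO and late WT libraries overlapped.

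*Ppp1r15a* encodes GADD34, which directs the dephosphorylation of eIF2α and so ends the integrated stress response. *Ppp1r15a* was at 137, 128, 127 and 102 CPM in early WT MEFs of the *S6K1* set, at 37.1, 31.8, 34.2 and 32.3 in late WT MEFs and at 40.9, 38.3 and 37.7 in KO MEFs. *Ppp1r15a* in the *S6K1/S6K2* set was at 37.9, 51.6, 51.3 and 67.9 CPM in early WT MEFs, at 123, 92.7, 96.4 and 118 in late WT MEFs and at 109.9, 106 and 110.3 in DKO MEFs. Its late level was 3.66-fold lower in the first set (-1.87 ± 0.13) and 2.10-fold higher in the second (1.07 ± 0.16), without overlap. The 3 KO libraries lay just above the 4 late WT libraries of the *S6K1* set, with means of 39.0 ± 1.70 (SD, n = 3) and 33.85 ± 2.425 CPM (SD, n = 4).

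Counted over the 10 genes, 8 were called lower at late passage in the *S6K1* set at an adjusted *P* of 0.05, where 5.97% of the 14132 genes tested were called lower. For the *S6K1/S6K2* set 8 were called higher, where 8.28% of 14365 genes were. Every late library lay below every early one for 8 genes in the first set (9.14% of all genes tested) and above for 8 genes in the second (10.3% of all). For 7 genes, *Egr1*, *Egr2*, *Nr4a1*, *Ier2*, *Dusp1*, *Zfp36* and *Ppp1r15a*, both held. The share of all genes for which both held was not counted. The median log2 fold change of the 10 was -1.52 and 1.44, beside -0.04 and 0.01 over all genes tested. The difference in passage effect between the sets was above 0 for all 10 genes and called higher for 9, all but *Btg2*, where 0.457% of 14886 genes were. Since the genes were proposed with these contrasts in view, nothing is read from these counts.

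**Figure D2:**
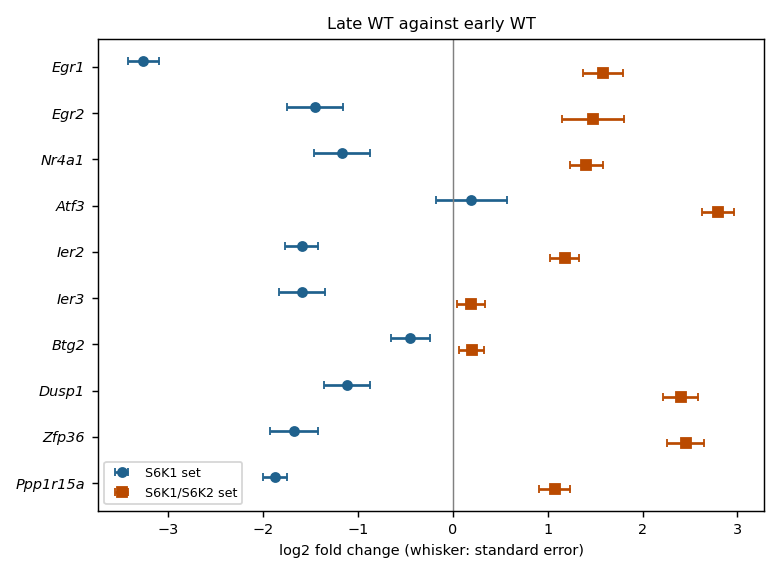
Log2 fold change of the 10 genes between late and early WT MEFs, as points with the SE as whisker, for the *S6K1* set (circles) and the *S6K1/S6K2* set (squares). *Egr1* lies furthest to the left at -3.26 and *Atf3* furthest to the right at 2.79, and both values of *Btg2* lie within 0.45 of 0.

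WT MEFs of the same passage also differed between the sets. Early WT MEFs of the *S6K1/S6K2* set were lower than those of the *S6K1* set for 9 of the 10 genes, and 7 were called lower (0.437% of all genes were). The log2 differences ranged from -2.93 for *Egr1* to 0.03 for *Btg2*. At late passage the WT MEFs of the *S6K1/S6K2* set were higher for all 10, from 0.65 for *Btg2* to 2.85 for *Zfp36*, and 8 were called higher (0.806% of all). Both contrasts were added after the data had been seen, and they use the same libraries as the passage comparisons. The labels name no day of harvest, feeding or batch, and each group lies within 1 set and at 1 passage. The handling of a set and the set itself can therefore not be told apart. Within a set, the handling of the early and late WT groups at harvest cannot be told apart from passage, and so neither can the opposite directions in the sets.

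The 19 macrophage markers were higher at late passage in both sets. Their summed level was 478 to 1126 CPM in early WT, 5475 to 11350 in late WT and 3660 to 4956 in KO MEFs of the *S6K1* set, and 606 to 2038, 7550 to 12970 and 933 to 3490 CPM in early WT, late WT and DKO MEFs of the *S6K1/S6K2* set. All 19 were called higher with passage in both sets, where 983 of 14132 and 1190 of 14365 genes were. None of 19 was called in the difference between the sets, where 106 of 14886 genes were called. No marker was at 0 in any library. With passage, 8 of the 10 genes were called lower in the *S6K1* set (5.97% of all genes were). In the *S6K1/S6K2* set 8 were called higher (8.28% of all). The part of the markers in these levels was not tested. Of 12 fibroblast markers, 2 fell with passage in each set.

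Within early WT MEFs of the *S6K1* set, the 2 libraries with Y-linked counts, replicates 1 and 3, were the 2 higher ones for *Ier3*, *Dusp1*, *Zfp36*, *Atf3* and *Nr4a1* and the 2 lower ones for *Egr1*, *Egr2* and *Ier2*. These 2 libraries also had the highest total counts of that group. With the Y-linked level as a covariate, the log2 fold change with passage in the *S6K1* set was -1.39 for *Ier3*, -0.93 for *Dusp1*, -1.51 for *Zfp36*, -1.05 for *Nr4a1*, -3.33 for *Egr1*, -1.48 for *Egr2*, -1.64 for *Ier2* and 0.63 for *Atf3*, each in the direction given above. Early WT MEFs of the *S6K1/S6K2* set had Y-linked counts in replicates 2 and 3. There *Egr1* was higher in these 2 libraries, at 62.6 and 65.3 CPM against 50.3 and 53.2. The other genes named here did not sort by Y-linked counts in that group.

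In late *S6K1* KO MEFs, the 10 genes differed from late WT MEFs by up to 1.54-fold. None was called, where 6 of 14132 genes were called in either direction (0.0425%). Over all genes, 1499 had an unadjusted *P* under 0.05, and DESeq2 called 250 genes but none of the 10. The log2 fold changes of KO against late WT MEFs ran from -0.63 ± 0.32 for *Nr4a1* and -0.62 ± 0.41 for *Atf3* to 0.51 ± 0.26 for *Dusp1*, and 7 of 10 were above 0. *Ppp1r15a* (0.20 ± 0.13) was the single gene of the 10 whose KO and late WT libraries did not overlap. The share of all genes with KO and late WT libraries apart was not counted, so nothing is read from this separation. All 3 KO libraries and 1 of 4 late WT libraries had Y-linked counts. With these as a covariate *Atf3* stood at -1.40, *Nr4a1* at -1.06, *Dusp1* at 0.15 and *Zfp36* at -0.09. Without the covariate *Zfp36* was at 0.29 ± 0.27. None of the 10 was called with it.

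Between DKO and late WT MEFs, *Ier2* was called higher in DKO MEFs (0.63 ± 0.16) and *Atf3* lower (-1.21 ± 0.18), where 0.821% of 14365 genes were called higher and 3.95% lower. The call of *Ier2* rested on the settings. None of the 10 was called higher with the Y-linked level as a covariate, with the 2 groups fitted alone, or without early WT replicate 3, late WT replicate 1 or 3, or DKO replicate 2 or 3, and 3 were with DESeq2. *Egr2* (0.98 ± 0.33), *Nr4a1* (0.53 ± 0.19) and *Ier2* had every DKO library above every late WT library, and *Atf3* and *Dusp1* (-0.39 ± 0.19) had every one below. Of these, *Egr2*, *Nr4a1* and *Dusp1* were not called. The share of all genes with DKO and late WT libraries apart was not counted, so nothing is read from the separation. *Egr1* stood at 0.71 ± 0.22, *Zfp36* at -0.10 ± 0.20 and *Ppp1r15a* at 0.00 ± 0.17, with overlapping libraries. Here 17 of 19 macrophage markers were called lower in DKO MEFs, and their part in the lower *Atf3* and *Dusp1* was not tested.

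**Figure D3:**
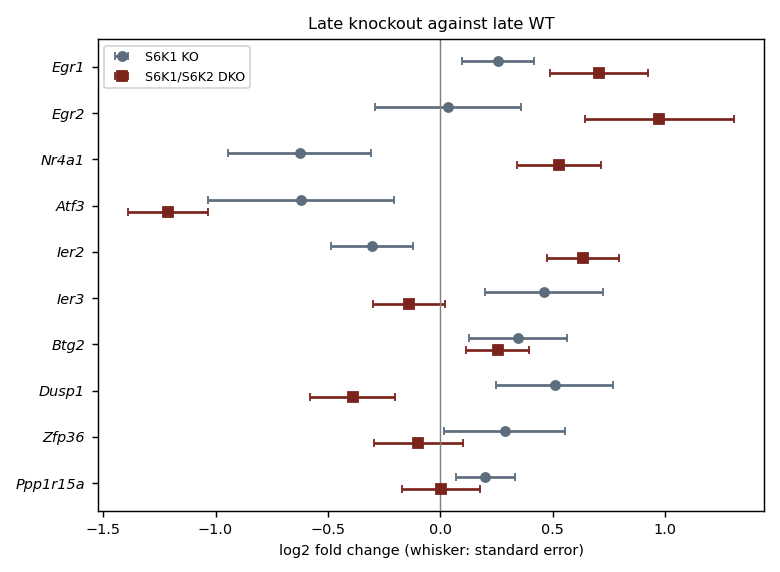
Log2 fold change of the 10 genes between late knockout and late WT MEFs, with the SE as whisker, for *S6K1* KO (circles) and *S6K1/S6K2* DKO MEFs (squares). *Atf3* in DKO MEFs lies furthest to the left at -1.21 and *Egr2* in DKO MEFs furthest to the right at 0.98.

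None of the 10 genes was called in the difference between both genotype effects, where 1 of 14886 genes was (0.00672%). These differences, DKO minus KO effect, ran from -0.88 ± 0.34 for *Dusp1* to 1.17 ± 0.38 for *Nr4a1*. The genotype comparisons share the late WT libraries with the passage comparisons, so a high late WT library moves both.

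Ordered by mean level, 7 of the 10 genes had late WT or DKO MEFs of the *S6K1/S6K2* set on top, and 3, *Egr1*, *Ier3* and *Ppp1r15a*, had early WT MEFs of the *S6K1* set. The lowest group was late WT or KO MEFs of the *S6K1* set for 7 genes and early WT MEFs of the *S6K1/S6K2* set for *Egr2*, *Atf3* and *Dusp1*. Most neighbours in these orders overlapped in their libraries. *Egr1* had 2 gaps, above DKO MEFs and below late WT MEFs of the *S6K1/S6K2* set. *Ier3*, *Btg2* and *Egr2* had none, so neighbouring groups did not differ beyond their spread.

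The AP-1 genes, whose products form the FOS and JUN dimers, were not among the 10 and were tested in the same fits, although the list was set up with earlier results of these data known. Of 7, 4 fell with passage in the *S6K1* set (*Fos*, *Fosb*, *Jun* and *Junb*) and 5 rose in the *S6K1/S6K2* set (these and *Jund*), while *Fosl1* and *Fosl2* did not pass in either. *Fos* was at 185 ± 42.5 CPM (SD, n = 4) in early WT, 5.96 ± 1.80 (n = 4) in late WT and 5.36 ± 0.216 (n = 3) in KO MEFs of the *S6K1* set. *Fos* in the *S6K1/S6K2* set was at 5.24 ± 1.66 CPM (SD, n = 4) in early WT, 238.5 ± 53.3 (n = 4) in late WT and 272 ± 62.1 (n = 3) in DKO MEFs. Its passage effects were -4.96 ± 0.24 (edgeR adjusted *P* = 4.43e-07) and 5.54 ± 0.28 (edgeR adjusted *P* = 1.69e-06), and they differed by 10.46 ± 0.38 (edgeR adjusted *P* = 2.28e-13). *Fosb* had -5.85 ± 0.30 and 5.53 ± 0.35 (edgeR adjusted *P* of the difference = 1.46e-12) and *Junb* -1.59 ± 0.18 and 1.63 ± 0.14 (edgeR adjusted *P* of the difference = 2.28e-08). No AP-1 gene was called in either genotype comparison by edgeR with all libraries, and 1 was called higher in DKO MEFs without DKO replicate 1. *Fos* stood at -0.15 ± 0.24 in KO and 0.18 ± 0.24 in DKO MEFs, and *Fosb* at 0.26 ± 0.33 and 0.14 ± 0.29.

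**Figure D4:**
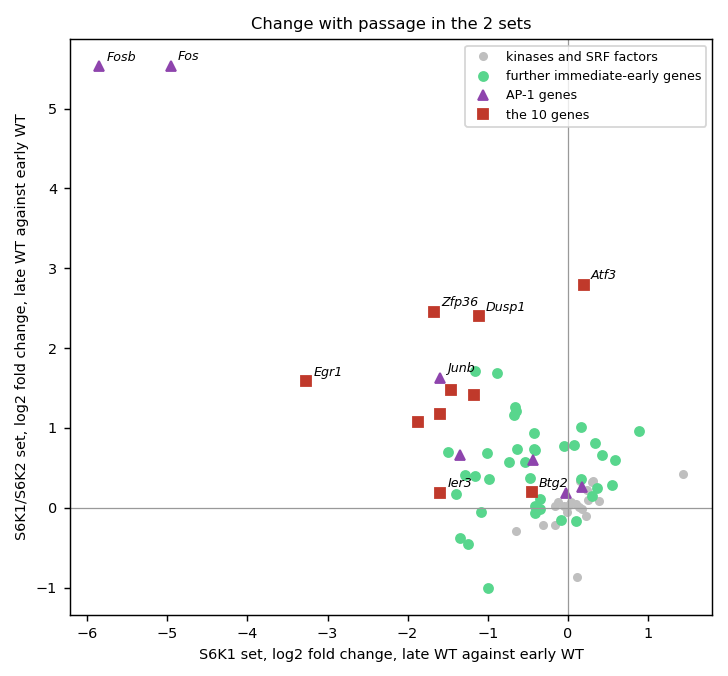
Log2 fold change between late and early WT MEFs in the *S6K1* set (x axis) and in the *S6K1/S6K2* set (y axis), for the 10 genes (squares), 7 AP-1 genes (triangles), 39 further immediate-early genes (circles) and 21 kinases and SRF factors upstream of them (dots). Of the 10 genes, 9 lie to the upper left of the crossed zero lines, as do 6 of 7 AP-1 genes, 21 of 39 further immediate-early genes and 3 of 21 upstream genes.

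Like the lists below, the list of 40 further immediate-early genes was set up with earlier results of these data known. Calls in these lists are therefore no independent test of the pattern. Of 39 tested, 10 fell and 1 rose with passage in the *S6K1* set, and 13 rose and 1 fell in the *S6K1/S6K2* set. The 10 were 6 with the 2 groups fitted alone or without KO replicate 1. Over all genes, 983 of 14132 were called higher and 844 lower with passage in the *S6K1* set. In the *S6K1/S6K2* set 1190 of 14365 were called higher and 702 lower. The median over the list was -0.42 and 0.57. *Pim1*, a kinase gene, fell by 1.49 ± 0.20 (edgeR adjusted *P* = 0.000482), *Bhlhe40* by 1.40 ± 0.22 and *Nfil3* by 1.35 ± 0.23 on the log2 scale in the first, where *Crem* rose by 0.59 ± 0.17, a call lost with no filter and without early WT replicate 2 or 4 or late WT replicate 1, 3 or 4. *Hes1*, a Notch target (1.71 ± 0.21, edgeR adjusted *P* = 0.000793), *Egr3* (1.69 ± 0.41) and *Klf4* (1.26 ± 0.12) rose most in the second, where *Errfi1* fell by 1.01 ± 0.25, a call lost without early WT replicate 1 or late WT replicate 2 or 3. *Csrnp1*, *Pim1* and *Hes1* fell in the first and rose in the second. The passage effect differed between the sets for 11 genes, among them *Hes1* (2.83 ± 0.43, edgeR adjusted *P* = 0.00127), *Egr3* (2.54 ± 0.54, edgeR adjusted *P* = 0.0234) and *Pim1* (2.16 ± 0.28, edgeR adjusted *P* = 0.00017). That count was 7 without late WT replicate 2 or 3 of the *S6K1* set or without late WT replicate 1 of the *S6K1/S6K2* set. None of the 39 was called in a genotype comparison by edgeR with all libraries of a set fitted together. DESeq2 called 1 higher in KO and 2 lower in DKO MEFs. In DKO MEFs edgeR called 1 lower with the Y-linked covariate or with the 2 groups alone, 1 higher and 1 lower without late WT replicate 1, and 1 higher without DKO replicate 1.

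Of 21 kinases, ternary complex factors and SRF cofactors tested, 2 were called with passage in the *S6K1* set, *Rps6ka1* higher (1.44 ± 0.33) and *Braf* lower (-0.64 ± 0.17), 1 in the *S6K1/S6K2* set (*Mapk3*, 0.33 ± 0.10) and none in the difference between sets. Over all genes, 1827 of 14132 and 1892 of 14365 were called with passage in the 2 sets, and 106 of 14886 in the difference. In DKO MEFs *Rps6ka1* (-1.78 ± 0.25) and *Rps6ka2* (-0.91 ± 0.20) fell. The macrophage markers called lower in DKO MEFs moved with both genes, and their part was not tested. Of 11 ERK feedback genes, 2 rose with passage in the first set (*Etv5*, 1.07 ± 0.25, and *Spred1*, 0.62 ± 0.16) and 3 in the second (*Dusp6*, 1.37 ± 0.23, *Dusp4*, 1.21 ± 0.34, and *Etv5*, 0.64 ± 0.19), and none was called between sets. These values are RNA levels, and kinase activity was not measured.

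Of 12 genes of the integrated stress response, which *Ppp1r15a* and *Atf3* serve, 2 fell with passage in the *S6K1* set and 3 in the other. *Ddit4* (-0.64 ± 0.12 and -0.70 ± 0.12) and *Chac1* (-1.18 ± 0.34 and -1.15 ± 0.34) fell in both and *Trib3* (-1.38 ± 0.19) in the *S6K1/S6K2* set. Of 12 p53 targets, 1 (*Sesn1*, 1.18 ± 0.20) rose in the first and 3, *Mdm2*, *Ccng1* and *Trp53inp1*, in the second. Over all genes, 983 of 14132 were called higher with passage in the first set and 1190 of 14365 in the second. Among 12 early NF-κB targets, *Cxcl2* fell and *Nfkbie* rose (1.03 ± 0.28) in the *S6K1* set, and 5 rose in the other. *Cxcl2*, a chemokine, followed the 10 genes, at 6.07 ± 0.665 CPM (SD, n = 4) in early WT and 0.875 ± 0.640 (n = 4) in late WT MEFs of the *S6K1* set. It had 2 to 4 counts per library in early WT MEFs of the *S6K1/S6K2* set and 40 to 107 in late WT MEFs. Of 12 heat-shock genes, 2 rose with passage in the first set and 4 in the second, and *Hspa1a* differed between sets (1.18 ± 0.24, edgeR adjusted *P* = 0.0188), although reads of its near-identical copy *Hspa1b* may be split with it. None of the integrated stress, p53 or heat-shock genes was called in a genotype comparison by edgeR, whereas 3 NF-κB targets, *Tnf*, *Cxcl2* and *Tnfaip3*, fell in DKO MEFs, calls that were lost in several other settings. The macrophage markers called lower in DKO MEFs moved with these 3, and their part was not tested.

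Across all 22 libraries the genes most like the mean of the 10 (each centred and scaled, Pearson *r*, out of 13006 genes of at least 1 CPM) were *Fos* (0.98), *Fosb* (0.96), *Junb* (0.96), *Jund* (0.89) and *Zfand5* (0.86). Against the mean of the other 9, *r* ran from 0.54 for *Atf3* and 0.63 for *Btg2* to 0.95 for *Zfp36*. These values hold the differences between the 6 groups. On deviations from group means, which take those differences out, the 45 pairs had a median *r* of 0.24, from -0.26 to 0.78, with 14 above 0.5 and 10 below 0. The closest pairs were *Atf3* with *Ier3* (0.78), *Atf3* with *Zfp36* (0.78) and *Ier3* with *Dusp1* (0.77). *Zfp36* was again nearest to the other 9 (0.87) and *Egr1* furthest (0.17). On this scale *Bysl* (0.85), *Mob3a* (0.83), *Cited2* (0.83), *Slc11a2* (0.82) and *Pwp2* (0.81) were most like the 10. All points share the same libraries and scaling factors, and these correlations are a description.

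**Figure D5:**
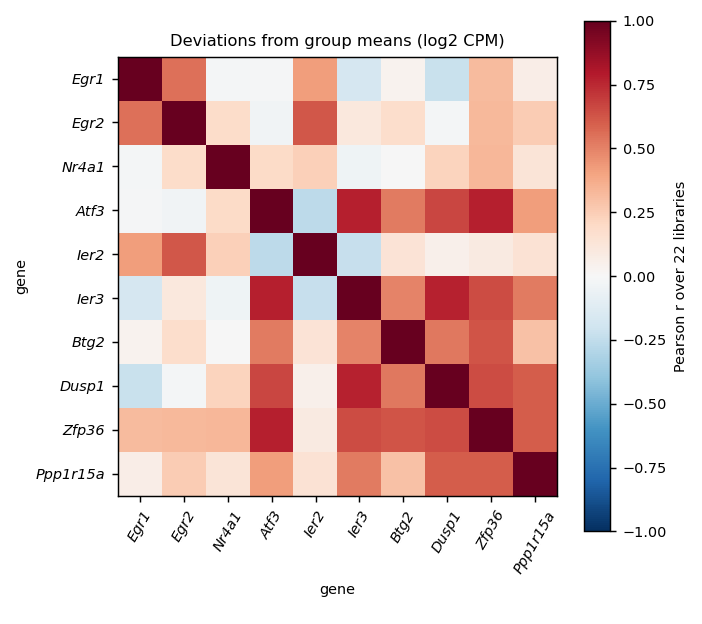
Pearson *r* between the 10 genes over 22 libraries, from deviations of log2 CPM from each group's mean, on a colour scale from -1 (blue) to 1 (red). *Atf3*, *Ier3*, *Dusp1* and *Zfp36* correlate at 0.65 to 0.78 with each other, while the median over all 45 pairs is 0.24.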

How the data were processed

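RNA-seq was measured in 22 libraries of MEFs in 6 groups taken from the labels, with 10742454 to 17314832 counts each. Per the study's methods, the authors made stranded mRNA libraries and counted single-end reads per gene with TopHat and HTSeq on mm9, whereas the submitters' processing notes name CASAVA, STAR 2.7.1a, mm10 and DESeq2 1.28.1. Which was used, and the strand setting, is not given in the sources used here. The deposited values are raw counts without normalization for 55401 identifiers, of which 32589 (96.98% of counts) were given a symbol. No 2 libraries of a group differed as little as sampling noise (chi-square per degree of freedom 20.61 to 265.71 over 30 pairs).

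Low counts were removed with filterByExpr, libraries scaled by TMM, and genes tested with edgeR 4.0.16 (R 4.3.3; quasi-likelihood, Benjamini-Hochberg threshold 0.05) over all genes, per set of 3 groups, and as interactions over all 22 libraries. The code was tested on simulated data. Log2 CPM used a prior count of 2. Promoters came from RefSeq, GRCm38.p6. The 10 genes and all gene lists were chosen with earlier results of these data known. Named were the 10 genes, *Fos*, *Fosb*, the S6K genes, per list and comparison at most 3 called genes of largest change in each direction, and the 5 genes most like the 10. *Jun*, *Jund*, *Fosl1*, *Fosl2* and *Csrnp1* were named after their values were seen. Alternatives were DESeq2 1.42.0, RLE scaling, no filter, other groups in the fit, a Y-linked covariate, a prior count of 0.5 in log2 CPM and leaving out each library.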

Additional observations from a re-analysis of the deposited data

Results flagged for a closer look

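In 56 groups of 4 libraries (the 10 genes, *Fos*, *Fosb* and the S6K genes in the 4 WT groups), 2 had a library far from the other 3, where chance gives about 1 in 20. *Ier2* in late WT replicate 4 of the *S6K1* set was at 47.16 CPM, below 3 libraries that lie close together, and *Fosb* in early WT replicate 2 of the *S6K1/S6K2* set was at 3.062 CPM, above the others.

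For 7 of the 10 genes (*Egr1*, *Egr2*, *Nr4a1*, *Ier2*, *Dusp1*, *Zfp36* and *Ppp1r15a*), every late WT library lay below every early one in the *S6K1* set and above every early one in the *S6K1/S6K2* set. How many of all genes did so was not counted. The interaction test of edgeR called all 7 of these genes, but as they were chosen with these contrasts in view, nothing is read from those calls. For genes outside the 10, the same test called a difference in the log2 fold change with passage, *S6K1/S6K2* set minus *S6K1* set, of 10.46 for *Fos*, 11.35 for *Fosb*, 3.18 for *Junb*, 2.83 for *Hes1*, 2.54 for *Egr3*, 2.16 for *Pim1*, 7.56 for *Cxcl2* and 1.18 for *Hspa1a*. Their lists were also set up with earlier results of these data known. The value of *Cxcl2* rests on few counts, since its early WT libraries in the *S6K1/S6K2* set held 2 to 4 counts. The genotype effect on *Rps6kb2* differed by -4.24, as this gene is deleted in DKO but not in *S6K1* KO MEFs.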

How the results depend on the processing

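Over all alternatives, 8 of the 10 genes were called higher with passage in the *S6K1/S6K2* set, 7 or 8 lower in the *S6K1* set (7 without early WT replicate 3 or late WT replicate 1) and 9 in the difference between the sets. None was called in KO MEFs or in the difference of the genotype effects, and 0 to 3 were called higher and 1 lower in DKO MEFs. Of 1200 log2 fold changes of the 10 genes, 6 moved by more than the spread between libraries, all in KO MEFs with the Y-linked covariate. Of 60 results of other named genes, 21 lost the call in at least 1 alternative and none changed direction.

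Counts over all genes moved by over 1.5 times as follows. With DESeq2 they were 250 (*S6K1* genotype), 1172 (*S6K1/S6K2* genotype), 218 (passage difference) and 63 (genotype difference). With no filter they were 43 (*S6K1* genotype) and 3 (genotype difference), with all 6 groups 16 (*S6K1* genotype), and with the Y-linked covariate 3265 (*S6K1* passage) and 38 (*S6K1* genotype). The cause was not tested. Leaving out 1 library gave 1223 to 1749 (passage, *S6K1*), 885 to 2247 (passage, *S6K1/S6K2*), 2 to 9 and 97 to 783 (genotype, *S6K1* and *S6K1/S6K2*), 78 to 118 and 1 to 5 (passage and genotype difference). Moves of over 1.5 times came, for passage in the *S6K1/S6K2* set, without early WT replicate 1 (885) or 2 (911) or late WT replicate 2 (1103) or 3 (1146), and for its genotype without DKO replicate 2 (97) or 3 (157) or late WT replicate 2 (328) or 3 (456). For the *S6K1* genotype 2 genes were left without any 1 KO library or late WT replicate 3 or 4. The genotype difference gave 5 without DKO replicate 1, 3 without *S6K1* late WT replicate 1 and 2 without *S6K1/S6K2* late WT replicate 3. Within-group *r* was 0.18 to 0.32.

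No paired analysis was possible because the labels give each library its own code, shared by no 2 groups.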
